A study of Homo sapiens with 5 samples.

Results

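Chromosome 1, the largest human chromosome, was described from all of its 500 kb bins in 3 Hi-C contact matrices of HL60, an established promyelocytic leukemia cell line. Hi-C cuts and rejoins DNA inside fixed nuclei and counts how often each pair of regions is joined, so a high count marks regions that lie near each other. The chromosome makes up 499 of the 6083 bins of the autosomes and chromosome X (genome build hg19), and all of them were taken, by position alone. The cells were untreated (2 libraries merged), treated with all-trans retinoic acid (ATRA, 1 library), which is known to move HL60 toward the granulocyte lineage, or given TPA, a phorbol ester (2 libraries merged), which moves them toward macrophages. Doses, times and the subline of HL60 are not given in the labels, and all groups are the same cell line, whose chromosomes are known to be rearranged. Each condition is 1 matrix, so there was no spread between replicates and no test. Intervals are 95% intervals for counting error, which do not cover duplicate read pairs or differences between libraries, and an effect of a treatment cannot be told apart from an effect of its libraries.

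The untreated, ATRA and TPA matrices held 10628045, 9632300 and 10423501 contacts, and chromosome 1 took part in 1480171, 1364196 and 1456231 of them, or 13.9 to 14.2% of each matrix. A run of 42 bins from 121.5 to 142.5 Mb held 0 contacts in every matrix and separates the arms. The short arm, 1p, comprises 243 bins and the long arm, 1q, 214 bins. Outside the gap 8 bins had under 0.2 times the genome median coverage in some matrix and were left out of the values that need even coverage, which kept 240 bins of 1p and 209 of 1q. Coverage here means all contacts of a bin.

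Inside the nucleus, DNA that belongs to the same chromosome meets more often than DNA of different chromosomes, and the contact falls with distance along the DNA. When material of different chromosomes has been joined, contact between them is highest at the join and falls away from it in the same manner. On a larger scale, regions rich in active genes (the A side) contact each other more than they contact gene-poor, mostly silent regions (the B side), and the converse. The outer part of 1p is known for its high gene density, while the regions near the middle of 1p and of 1q hold long gene-poor stretches.

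The most prominent contact of chromosome 1 with another chromosome lay between the end of 1p and the end of 3q. A pair of bins from different chromosomes was counted as joined if it held 20 contacts or more over the 3 matrices and reached 10 times the number expected from the coverage of the 2 bins, with pairs up to 2 bins apart merged. Of the 2409761 bin pairs of chromosome 1 with other chromosomes, 118 met this limit, in 11 clusters. Over all chromosomes 879 of 15552524 pairs did (0.00565%), in 130 clusters. The cluster of 1p (1 to 10 Mb) with chromosome 3 (182 to 197 Mb) comprised 98 of those pairs with 3718 contacts, the most of any cluster. The untreated, ATRA and TPA matrices gave it 1528, 938 and 1252 contacts, which is 20.4 times (19.4 to 21.4), 14.7 times (13.7 to 15.6) and 17.5 times (16.6 to 18.5) the expected number. These values follow from the limit that chose the pairs and are a description. At the edge of that limit, the pair of 7.5 to 8 Mb with 194 to 194.5 Mb held 30 contacts at 10.03 times the expected number and was counted, while 7 to 7.5 Mb with 193 to 193.5 Mb held 22 contacts at 9.99 times and was not.

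Seen bin by bin, the contact formed 2 blocks that meet at a corner. The highest pair, 5 to 5.5 Mb on chromosome 1 and 192 to 192.5 Mb on chromosome 3, held 54 contacts untreated, 33 with ATRA and 75 with TPA. The pair diagonally opposite, 4.5 to 5 Mb with 191.5 to 192 Mb, held 55, 32 and 38 contacts. The bin limits at 5 Mb on chromosome 1 and 192 Mb on chromosome 3, where these pairs touch, are called the boundary below, and they were set after the map had been seen. Bins before the boundary on chromosome 1 contacted bins before it on chromosome 3, and bins after it contacted bins after it.

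**Figure D1:**
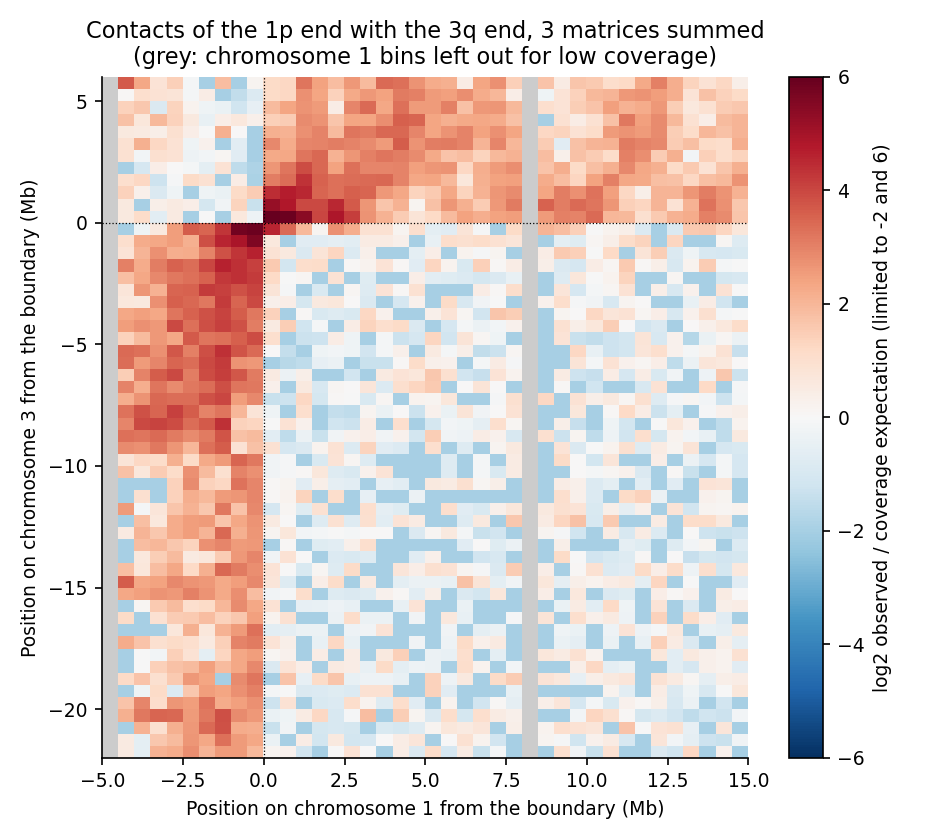
Contacts between the end of 1p (x axis, Mb from the boundary) and the end of 3q (y axis, Mb from the boundary), as log2 of the summed contacts of the 3 matrices over the number expected from coverage, with 1 cell for each pair of 500 kb bins and colours limited to -2 and 6. High values fill the lower left and upper right blocks, which meet at the boundary, and the other 2 blocks are far lower.

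Within 10 Mb of the boundary, the end of 1p (0 to 5 Mb) and chromosome 3 before the boundary (182 to 192 Mb) had 12.2 times the expected contacts in untreated cells (11.6 to 12.9), 9.46 times in ATRA (8.83 to 10.1) and 11.0 times in TPA (10.4 to 11.7). Chromosome 1 after the boundary (5 to 15 Mb) and the end of 3q (192 to 198 Mb) had 8.07 times the expected contacts in untreated cells (7.67 to 8.48), 6.51 times in ATRA (6.12 to 6.91) and 7.50 times in TPA (7.10 to 7.91). The remaining 2 combinations were far lower. The end of 1p with the end of 3q held 94 contacts in untreated cells, 1.20 times the expected number (0.967 to 1.46), against 1.05 in ATRA (0.808 to 1.35) and 1.48 in TPA (1.21 to 1.79). Bins from 5 to 15 Mb with 182 to 192 Mb held 293 contacts in untreated cells, 1.09 times the expected number (0.972 to 1.23), against 0.896 in ATRA (0.780 to 1.02) and 1.26 in TPA (1.13 to 1.41), so both lay above 1 in TPA. So a shift from 4.5 to 5.5 Mb along 1p exchanged the partner on 3q, in all 3 matrices.

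Both blocks reached far beyond the pairs that met the limit. From the end of 1p the contact extended along most of 3q. In untreated cells it was 20.4 times the expected number with 190 to 192 Mb, 9.66 times with 180 to 190 Mb and 4.46 times with 170 to 180 Mb, and it stayed between 3.25 and 3.87 times in each 10 Mb window from 120 to 170 Mb. Between 90 and 120 Mb it was 1.67 to 1.77 times. On 3p, the windows from 20 to 80 Mb had 0.628 to 1.08 times the expected number, and the window from 10 to 20 Mb had 1.50 times (1.29 to 1.73). The neighbouring 5 to 10 Mb of 1p gave 0.610 to 1.08 times in each chromosome 3 window from 0 to 190 Mb, and 3.18 times with the 2 Mb just before the boundary. The same separation held in ATRA, where the end of 1p had 3.86 times the expected contacts with 120 to 130 Mb and the next 5 Mb had 0.866 times, and in TPA, with 3.13 and 0.900 times.

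From the end of 3q (192 to 198 Mb) the contact extended along 1p in the same manner. In untreated cells it was 10.9 times the expected number with 5 to 10 Mb, 4.13 times with 10 to 20 Mb and 3.22 times with 20 to 30 Mb. It was 3.00 times at 50 to 60 Mb, 2.02 times at 60 to 70 Mb and between 1.46 and 1.96 times in the windows from 70 to 120 Mb. On 1q, past the gap, the windows from 150 Mb onward had 1.19 to 2.02 times. The adjacent 6 Mb of 3q before the boundary (186 to 192 Mb) had 14.5 times the expected contacts with 0 to 5 Mb, 1.44 times with 5 to 10 Mb, and 0.830 to 1.28 times in every window of chromosome 1 from 10 Mb to the end. In untreated cells the end of 3q thus stood above its neighbour in every window from 5 Mb on, least at 210 to 220 Mb (1.19 against 1.08 times). In ATRA the order was the opposite at 170 to 180 Mb (1.01 against 1.05 times).

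Contact through the boundary fell with distance. Per bin pair of a distance class, it was lower than inside the arms within 2 Mb and closer to them at 5 to 10 Mb. Distance was counted along chromosome 1 to the boundary and on along chromosome 3. Within 2 Mb, bin pairs through the boundary held 31.2 contacts each on the side of the 1p end and 41.7 on the side of the 3q end in untreated cells. In the same class, pairs inside 1p held 90.9 and pairs inside 3q 64.0. At 5 to 10 Mb the values were 6.33 and 5.17 through the boundary, 7.20 inside 1p and 5.02 inside 3q. At 20 to 40 Mb they were 1.84 and 2.73 through the boundary, 2.87 inside 1p and 2.19 inside 3q. As a share of the value inside 1p, contact on the side of the 1p end was 0.343 within 2 Mb and 0.879 at 5 to 10 Mb, and on the side of the 3q end 0.459 and 0.717. Coverage differs between the arms and was not corrected in these counts. The mix of distances inside a class was not matched either. Pairs through the boundary (6 on each side within 2 Mb) grow in number with distance, while the 710 pairs inside 1p spread nearly evenly over the class. The shares within 2 Mb are thus biased downward, by an amount that was not measured.

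**Figure D2:**
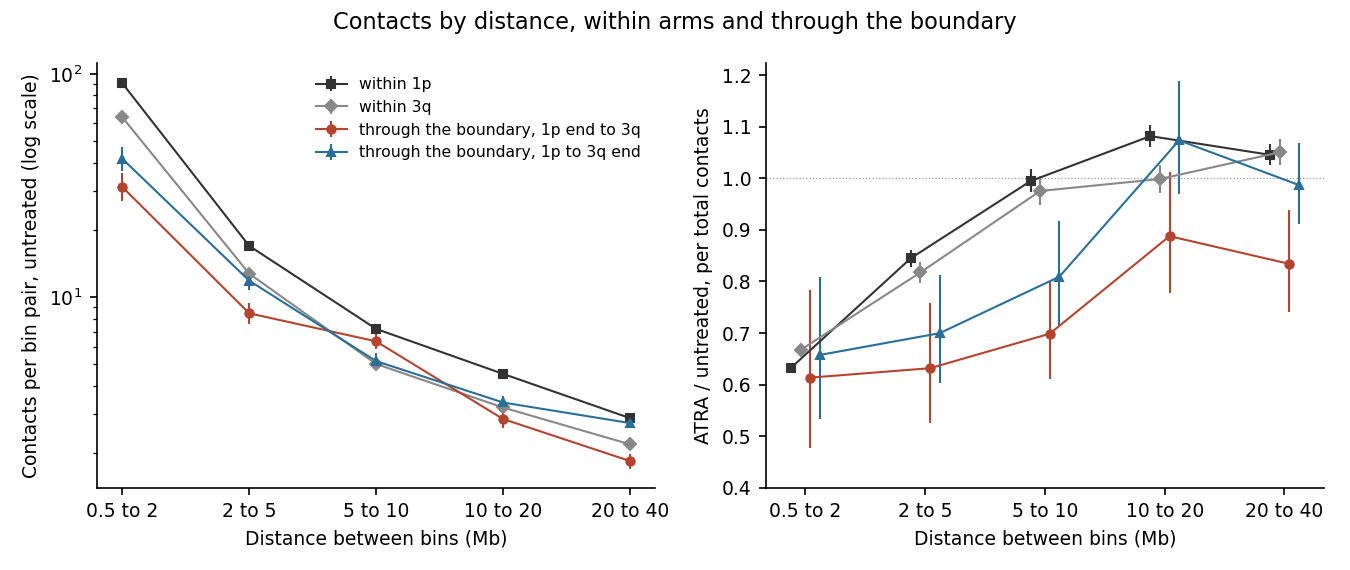
Left, contacts per bin pair in untreated cells (log scale) against distance in Mb, inside 1p, inside 3q and through the boundary on either side. Right, ATRA over untreated contacts per total contacts for the same pairs. Bars are 95% counting intervals. The curves through the boundary run below those inside 1p in each distance class, whose mix of distances was not matched. On the right, those nearest the boundary are lower in ATRA, as close contacts inside the arms are.

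Both treated matrices held fewer contacts in the cluster. Relative to the coverage expectation, the cluster changed 0.720-fold in ATRA (0.663 to 0.781) and 0.860-fold in TPA (0.797 to 0.927). Among the 33 clusters of 5 or more bin pairs over all chromosomes, the median was 0.742 in ATRA with 30 below 1, and 0.860 in TPA with 29 below 1, so the values of 1p with 3q were near the middle of those of joined segments in general. Close contacts inside the arms fell as well. Per total contacts, pairs through the boundary within 2 Mb changed 0.614-fold (0.478 to 0.784) and 0.658-fold (0.533 to 0.809) in ATRA, against 0.633-fold inside 1p and 0.668-fold inside 3q. At 2 to 10 Mb the pairs through the boundary were lower than those inside the arms, for example 0.699-fold (0.611 to 0.799) at 5 to 10 Mb on the side of the 1p end against 0.995-fold inside 1p. In the same matrix the median coverage of the 5 Mb before the boundary on 1p went from 1.31 to 0.915 times the genome median, and its part in that difference was not tested. In TPA the pairs within 2 Mb changed 0.720-fold and 0.889-fold, against 0.702-fold inside 1p. Farther out, the pairs through the boundary were lower than those inside the arms in TPA too. At 2 to 5 Mb they changed 0.723-fold (0.609 to 0.857) and 0.739-fold (0.640 to 0.853), against 0.963-fold inside 1p and 1.00-fold inside 3q. At 5 to 10 Mb they changed 0.978-fold (0.869 to 1.10) and 0.961-fold (0.854 to 1.08), against 1.15-fold inside 1p and 1.23-fold inside 3q.

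Contact inside 1p across the boundary was among the lowest of the arm in untreated cells and TPA. Contacts between the 4 Mb on each side of 5 Mb were 0.719 times the mean at the same distance in the untreated matrix, 0.761 with ATRA and 0.682 with TPA. Among 114 positions along 1p this was the fourth lowest in untreated cells, rank 16 in ATRA and the second lowest in TPA. The lowest in untreated cells and in TPA was at 47 Mb (0.529 and 0.491 times), where no joined cluster lay, so a low value is not particular to the boundary. Coverage was lower before the boundary than after it. The median relative coverage was 1.31 in the 5 Mb before the boundary and 1.60 in the 5 Mb after it in the untreated matrix, 0.915 and 1.29 with ATRA, and 1.14 and 1.50 with TPA, and the 9 and 10 bins overlapped in range in each matrix. The 3 bins from 4.5 to 6 Mb, on both sides of the boundary, formed 1 of 3 runs of the chromosome above 1.5 times the median in all matrices, at 1.76 times in each. Genes were not placed in these bins, since the gene table used here is on another build (GRCh38). In RefSeq's order the outer part of 1p carries TNFRSF14, a receptor of lymphocyte signaling, PRDM16 and TP73, a relative of p53. The outer part of 3q, on either side of the boundary, carries BCL6, a repressor central to B cells, LPP, TP63 and TFRC, the transferrin receptor. Which of them lie on which side of the boundary was not determined.

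The other 10 clusters of chromosome 1 were small. A further 3 joined the same chromosomes and lay inside the 2 blocks: 14.5 to 15.5 Mb with 192 to 193 Mb (48 contacts over the 3 matrices), 2 to 3.5 Mb with 171 to 172 Mb (45 contacts) and 1 to 2 Mb with 128.5 to 129 Mb (43 contacts). On the long arm beside the gap, 144.5 to 148 Mb joined chromosome 16 at 70.5 to 71.5 Mb in 7 bin pairs with 160, 81 and 105 contacts in the untreated, ATRA and TPA matrices, or 36.5, 18.9 and 25.4 times the expected number, and 149.5 to 150.5 Mb joined 71 to 71.5 Mb with 58 contacts in all. This contact had a different form from that of 1p with 3q. The 2 bins of chromosome 16, which the limit chose, had 21.0 and 25.8 times the expected contacts with 144.5 to 150.5 Mb in untreated cells. The 5 Mb before them had 0.948 times (0.680 to 1.29) and the 5 Mb after them 0.902 times (0.621 to 1.27). So neither 5 Mb side as a whole stood above the expected number, and the single bins next to the 2 bins were not measured separately. In ATRA the 2 bins of chromosome 16 had 12.1 and 13.2 times, and in TPA 13.5 and 20.7 times.

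The remaining 5 clusters were single bin pairs. The bin 91.5 to 92 Mb of chromosome 2 joined 149 to 149.5 Mb (14, 12 and 10 contacts in untreated, ATRA and TPA), 117 to 117.5 Mb (11, 7 and 8) and 145.5 to 146 Mb (9, 8 and 7). Chromosome 21 at 9.5 to 10 Mb joined 143 to 143.5 Mb with 10, 10 and 9 contacts, and chromosome 7 at 100.5 to 101 Mb joined 211 to 211.5 Mb with 10, 5 and 12. Expected counts in untreated cells were lowest for 143 to 143.5 Mb with chromosome 21, at 0.0805 contacts, and that bin of chromosome 1 had 0.337 times the median coverage. They were highest for 117 to 117.5 Mb with chromosome 2, at 0.578 contacts, and that bin of chromosome 1 had 1.37 to 1.46 times over the matrices.

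Coverage was high on the outer part of 1p and at 200 to 210 Mb on 1q. The median bin of 1p had 1.20 times the genome median in the untreated matrix, 1.13 with ATRA and 1.15 with TPA, and the median bin of 1q 1.11, 1.09 and 1.09. Per bin, 1p held 1.09 times the contacts of 1q in untreated cells, 1.05 times in ATRA and 1.08 times in TPA. Counting contacts with other chromosomes alone, for which an interval can be given, the ratio was 1.08 (1.080 to 1.089), 1.04 (1.03 to 1.04) and 1.08 (1.08 to 1.09). The 10 Mb windows up to 40 Mb had medians of 1.47 to 1.62 in untreated cells, and the window at 70 to 80 Mb had 0.774. On 1q the window at 200 to 210 Mb had 1.47, against 1.27 in ATRA, where the windows up to 40 Mb had 1.26 to 1.35. Beside the run at the boundary, bins at 18 to 19.5 Mb (1.84, 1.72 and 1.79 in the 3 matrices) and 230 to 231.5 Mb (1.69, 1.66 and 1.66) stayed above 1.5. Beside the gap, bins at 147.5 to 149 Mb stayed below 0.4, at 0.134, 0.112 and 0.124.

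**Figure D3:**
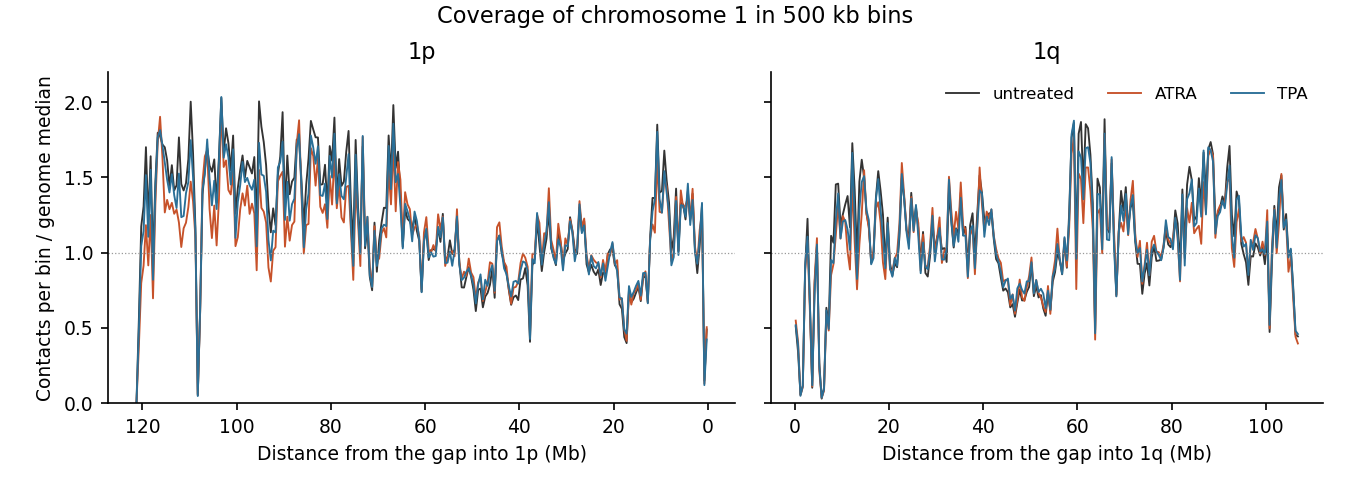
Coverage of each bin of 1p and 1q (contacts per bin over the genome median) against its distance from the gap in Mb, in the 3 matrices. The outer part of 1p is high, as is a stretch of 1q about 60 Mb from the gap, and on outer 1p the ATRA line mostly runs below the untreated line.

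In ATRA the outer 1p lost contacts with other chromosomes. Relative to the genome median, contacts of the 4 windows from 0.5 to 40 Mb with other chromosomes changed by -0.32 (-0.33 to -0.30), -0.25 (-0.26 to -0.23), -0.34 (-0.35 to -0.32) and -0.24 (-0.26 to -0.22) on the log2 scale, while the windows from 60 to 100 Mb changed by 0.07 to 0.14. On 1q the window from 150 to 160 Mb changed by -0.23 and that from 200 to 210 Mb by -0.14. The split followed the compartments: A bins (compartment score of the 3 matrices summed above 0.5 SD, explained with the scores) had a median change in coverage of -0.27 on 1p and -0.18 on 1q, and B bins 0.09 and 0.07. TPA showed the same order at smaller size, with -0.10 for A bins of either arm and 0.06 for B bins (score below -0.5 SD).

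The chromosome kept fewer of its contacts to itself in the treated matrices. Contacts inside chromosome 1 made up 28.7% of its contacts in untreated cells (28.6 to 28.8), 23.3% in ATRA (23.3 to 23.4) and 26.7% in TPA (26.6 to 26.8), which ranked the second, the first and the second highest of 23 chromosomes. Of all contacts of 1p, 24.7% lay inside the arm and 6.47% went to 1q in untreated cells, against 19.9% and 5.96% in ATRA and 22.4% and 6.67% in TPA. For 1q the shares were 23.3% and 8.04%, 18.6% and 7.12%, and 21.6% and 8.19%.

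In ATRA the loss was greatest at short distances and was seen again beyond 20 Mb, and in TPA it lay below 2 Mb. Per total contacts, neighbouring bins changed 0.630-fold in ATRA (0.622 to 0.638) and 0.697-fold in TPA (0.689 to 0.706), and bins 10 to 20 Mb apart 1.08-fold (1.07 to 1.10) and 1.23-fold (1.21 to 1.24). Bins 50 to 100 Mb apart changed 0.941-fold in ATRA (0.927 to 0.956) and 1.08-fold in TPA (1.06 to 1.09), and bins over 100 Mb apart 0.898-fold (0.885 to 0.911) and 1.02-fold (1.01 to 1.03). In TPA the gain at 10 to 20 Mb was 1.33-fold in 1q (1.30 to 1.36) and 1.16-fold in 1p (1.14 to 1.18). The decay from 1 to 10 Mb, as the slope of log contacts on log distance, went from -1.09 to -0.88 in ATRA and -0.87 in TPA on 1p, and from -1.20 to -0.99 and -0.94 on 1q. Between 10 and 50 Mb the arms differed from each other. The slope in untreated cells was -0.79 on 1p and -0.35 on 1q, against a median of -0.48 over 24 arms, and 1q went to -0.41 in ATRA and -0.58 in TPA.

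Contact between the arms across the gap was close to that inside the arms at the same distance. Balanced contacts between 1p and 1q, counted where the arms gave an expectation at that distance (15077 of 50160 bin pairs), were 1.04 times those inside the arms in untreated cells, 1.01 times in ATRA and 1.00 times in TPA. Among 18 chromosomes with 2 measured arms the values ran from 0.651 to 2.63 in untreated cells, and chromosome 1 ranked eighth, seventh and ninth in the 3 matrices. With raw contacts in place of balanced ones the values were 0.850, 0.895 and 0.837, so whether the arms met more or less than expected depended on balancing. By distance, pairs 21 to 30 Mb apart, which span little more than the gap, had 1.33 times (1.19 to 1.49) in untreated cells, 1.31 times in ATRA and 1.12 times in TPA. Pairs 30 to 50 Mb apart had 0.851, 0.854 and 0.819 times, and pairs 80 to 110 Mb apart 1.16, 1.09 and 1.06 times.

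Over all distances, contact between the arms varied by block. The highest block of 10 by 10 Mb, against the chromosome's mean at the same distance, was 20 to 30 Mb with 150 to 160 Mb, at 2.13 times (2.01 to 2.26) in the untreated matrix, 1.97 with ATRA and 1.68 with TPA. The lowest in untreated cells was 80 to 90 Mb with the same 150 to 160 Mb, at 0.424 times (0.371 to 0.483), 0.610 in ATRA and 0.707 in TPA. Between the arms, A bins contacted A bins at 1.60 times the mean, B bins contacted B bins at 1.10 times and A bins contacted B bins at 0.678 times in untreated cells. In TPA the values were 1.50, 1.20 and 0.695 times. Since the same contacts define the sides, these values are a description.

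Compartment scores, in SD over the bins of the chromosome, were taken from the leading pattern of balanced contacts in each matrix and turned so that the side in contact with chromosome 19, a gene-rich chromosome, is positive (A). Of 449 bins, 52.1% were on the A side in the untreated matrix, 49.4% with ATRA and 45.9% with TPA. On 1p the shares were 53.8%, 55.0% and 49.2%, and on 1q 50.2%, 43.1% and 42.1%. The longest A run was 13.5 to 48 Mb, and with 5.5 to 13 Mb and 0.5 to 5 Mb it put nearly all of the outer 48 Mb of 1p on the A side. The other long A runs lay on 1q at 223.5 to 236.5, 149.5 to 162 and 199.5 to 209.5 Mb. The longest B runs were 60 to 78, 94.5 to 109 and 78.5 to 92 Mb on 1p and 184 to 199.5 and 213.5 to 223.5 Mb on 1q.

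**Figure D4:**
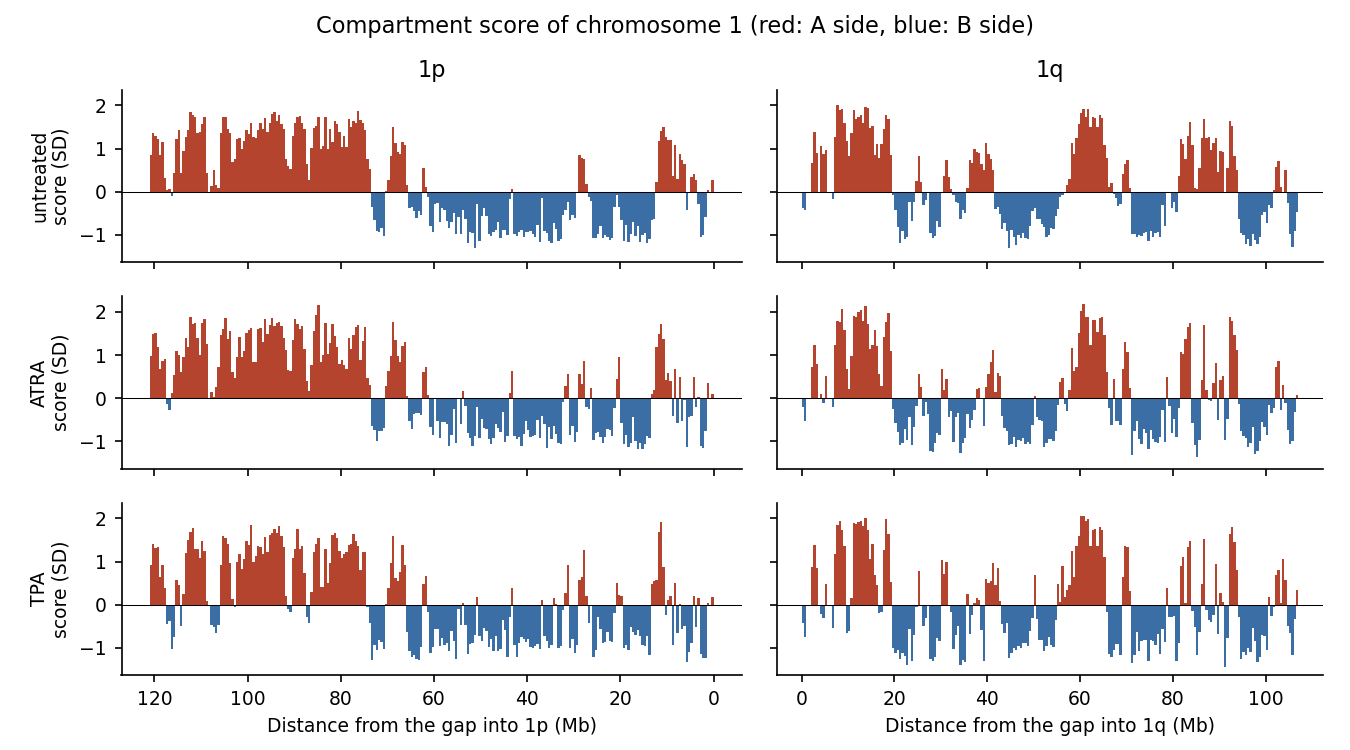
Compartment score (SD) of each bin of 1p and 1q against its distance from the gap in Mb, in untreated, ATRA and TPA matrices. Outer 1p is on the A side (red) and the inner part of 1p mostly on the B side (blue). The A blocks of 1q at positions 178 to 184 Mb and 223.5 to 236.5 Mb weaken in both treated matrices.

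A measure from contacts with other chromosomes, which enter the scores only through balancing and the choice of sign, gave a like division. It is the share of each bin's contacts with other chromosomes that fell on A bins there, out of A plus B bins (1662 and 2297 bins), without the joined pairs. It was not corrected for the coverage of those A and B bins in each matrix. Over the 449 bins it correlated with the score at r = 0.88 in the untreated matrix, 0.87 with ATRA and 0.92 with TPA. The sign of r follows in part from how the scores were turned, and the bins share libraries and neighbours, so this is a description. The run at 13.5 to 48 Mb had 54.5% of such contacts with A bins and the run at 60 to 78 Mb had 42.0% in untreated cells. The end of 1p (0.5 to 5 Mb) had 58.1%, the highest of the 22 runs of 5 or more bins. This value still holds the contact of the end of 1p with 3q below the limit, such as with 170 to 180 Mb (4.46 times the expected number). It is therefore not a value apart from the join.

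The scores were mostly alike across matrices, with r = 0.92 between ATRA and untreated and 0.87 between TPA and untreated, close to the medians over 23 chromosomes (0.92 and 0.85). Some A runs of both arms weakened. The run at 178 to 184 Mb went from a mean score of 0.72 to 0.06 in ATRA and 0.03 in TPA. The 26 bins at 223.5 to 236.5 Mb went from 0.94 to 0.43 and 0.25, and their share of contacts with A bins of other chromosomes from 48.5% to 43.5% and 44.8%. The run at 109 to 115.5 Mb on 1p went from 0.92 to 0.52 and 0.23. The scores of the runs at 199.5 to 209.5 Mb (1.24, 1.16 and 1.10) and 13.5 to 48 Mb (1.28, 1.23 and 0.98) changed less, but their share of contacts with A bins elsewhere fell in ATRA too, from 50.8% to 47.3% and from 54.5% to 48.9%. Among the B runs, those at 175 to 178 Mb (-0.36, -0.84 and -1.04) and, in TPA, 56 to 59 Mb (-0.46, -0.45 and -1.16) moved further from 0, while those at 94.5 to 109 Mb (-0.84, -0.64 and -0.55) and 184 to 199.5 Mb (-0.74, -0.59 and -0.48) came closer to it. Runs were drawn on the untreated scores, so these changes are a description.

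Few bins crossed from beyond 0.5 SD on a side to beyond 0.5 SD on the other. In ATRA 5 of 449 bins went from A to B (1.11%), against 0.533% of all bins analysed, and 1 went from B to A, against 0.231%. In TPA 7 went from A to B (1.56%), against 2.52%, and 1 from B to A, against 0.213%. With raw contacts the counts from A to B were 3 in ATRA and 16 in TPA, and none went from B to A in either, nor with each arm scored separately. Over all chromosomes the TPA value rests in part on chromosomes 3 and 14, with 26 and 21 of the 142 bins. The 5 bins of ATRA started at 226.5 Mb (score from 1.09 to -0.59), 228 Mb (0.54 to -0.98), 178.5 Mb (0.73 to -0.69), 114.5 Mb (0.74 to -0.54) and 179 Mb (0.67 to -0.51). The bin that went to A was 185 to 185.5 Mb (-0.51 to 0.52). The 7 bins of TPA started at 152 Mb (1.18 to -0.67), 152.5 Mb (0.83 to -0.62), 178.5 Mb (0.73 to -0.69), 234 Mb (0.55 to -0.76), 114.5 Mb (0.74 to -0.56), 181 Mb (0.64 to -0.58) and 228 Mb (0.54 to -0.64). The bin that went to A was 108.5 to 109 Mb (-0.63 to 0.56). Both treatments were set against the same untreated matrix.

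Contacts with other chromosomes moved the same way at several of these bins. The bin at 228 to 228.5 Mb had the largest fall of chromosome 1 in either treatment, from 49.4% of such contacts with A bins (47.2 to 51.6) to 36.2% in ATRA (33.8 to 38.7) and 39.5% in TPA (37.3 to 41.7). In TPA the neighbouring bins at 152 to 152.5 and 152.5 to 153 Mb went from 50.6% to 41.8% and from 46.7% to 38.7%, and 230 to 230.5 Mb from 49.5% to 41.1%. The largest rises in TPA were at 192.5 to 193 Mb, from 45.1% to 53.5%, and 212 to 212.5 Mb, from 46.9% to 55.1%. In ATRA the share fell over most of the chromosome, with a median change of -2.88 percentage points over the 449 bins, -4.18 at A bins and -1.15 at B bins, against -0.80 over all bins in TPA. The largest rise in ATRA was 4.53 points at 249 to 249.5 Mb (-1.33 to 10.4), so its interval includes 0. These shares were not corrected for the coverage of the bins on other chromosomes. On chromosome 1 the coverage of A bins changed by a median log2 of -0.22 in ATRA and that of B bins by 0.07. Whether bins of other chromosomes changed alike, and the part of this in the fall of the share, was not tested.

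The strength of the pattern, as contacts within the top and within the bottom 20% of bins over contacts between them, was 3.59 in the untreated matrix, 3.54 with ATRA and 3.42 with TPA. The order of the matrices changed when each arm was scored separately, to 1.05 times the untreated value in ATRA and 1.12 times in TPA, so no direction is given. Inside the arms at 1 to 10 Mb, A bins met A bins at 1.17 times the mean in untreated cells (1.16 to 1.18), 1.33 times in ATRA (1.32 to 1.35) and 1.19 times in TPA (1.18 to 1.20), and B bins met B bins at 1.14, 1.06 and 1.19 times.

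The arms kept different company among the other chromosomes. Relative to an expectation fitted to the coverage of all arms, 1p was highest with chromosome 3 at 1.17 times in untreated cells (1.16 to 1.18), chromosome 22 at 1.16 (1.14 to 1.18), chromosome 19 at 1.08 (1.06 to 1.09), chromosome 17 at 1.03 and chromosome 20 at 1.02. Without the joined bin pairs the value for chromosome 3 was 1.13. That value still holds the contact of the 2 blocks below the limit, such as the end of 3q with 10 to 20 Mb (4.13 times). It is therefore not a value apart from the join. The arm 1q was highest with chromosome 13 at 1.08 (1.06 to 1.09), X at 1.07 and chromosomes 2, 4 and 3 at 1.06, 1.06 and 1.05. It was low with each of chromosomes 16 to 22 (0.895, 0.901, 0.953, 0.931, 0.913, 0.911 and 0.919 in that order). With an expectation from the number of bins, 1q with chromosome 22 turned to 1.23, so that direction rests on the coverage expectation. Over the 22 partners the log2 values of the arms correlated at r = 0.01 in the untreated matrix and 0.36 with either treatment, a description over partners that share libraries.

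**Figure D5:**
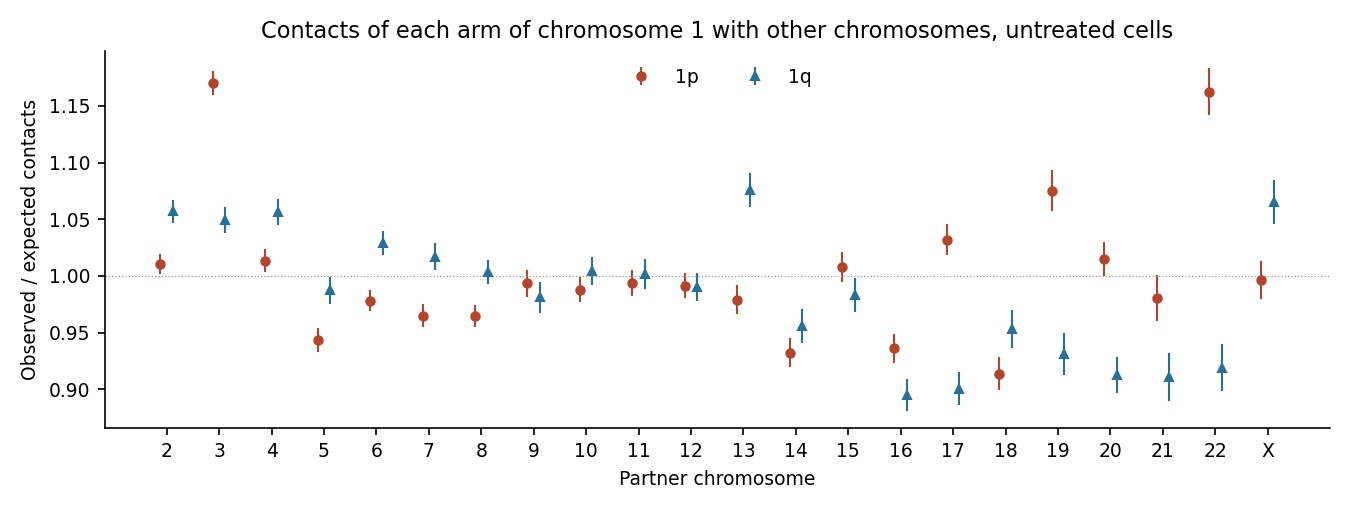
Observed over expected contacts of 1p (circles) and 1q (triangles) with each other chromosome in untreated cells, with 95% counting intervals. For 1p, chromosomes 3 and 22 stand highest, and 1q lies below 1 with chromosomes 16 to 22.

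Changes of these values with treatment were small. For 1p the largest falls in ATRA were chromosome 22 (log2 -0.11, -0.15 to -0.07), 19 (-0.08), 3 (-0.04), 21 (-0.04) and 17 (-0.03), and in TPA chromosome 19 (-0.13, -0.17 to -0.10), 16 (-0.07), 17 (-0.07), 15 (-0.06) and 21 (-0.05). Its largest rises were with chromosome 12 in ATRA (0.04) and 13 in TPA (0.05). For 1q the largest rises in ATRA were with chromosomes 21 (0.06), 22, 16, 20 and 17, and the largest falls with 13 (-0.06), 3 (-0.04) and 4 (-0.03). In TPA 1q fell most with chromosome 15 (-0.06) and rose most with X (0.03).

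Of single bin pairs inside chromosome 1, at least 1 Mb apart and with 40 or more contacts in untreated plus treated, 37 of 1346 were more than 2-fold higher in ATRA after correction for the change at that distance, against 1.59% over all chromosomes, and 32 were more than 2-fold lower, against 2.43%. In TPA 24 of 1520 were higher, against 1.79%, and 40 lower, against 2.63%. Pairs between the arms hold few contacts (306 in untreated cells over the 92 pairs 21 to 30 Mb apart), so with this minimum nothing can be said of them. Scaled to matrix totals in place of the mean at each distance, 19 pairs were higher and 145 lower in ATRA, and 28 higher and 98 lower in TPA, so the split between rises and falls rests on that scaling. In ATRA the largest fall was 6.5 to 7 Mb with 9 to 9.5 Mb, which held 46 contacts in untreated cells and 7 in ATRA (log2 -2.35, -3.74 to -1.19), and 23 in TPA. It was followed by 1 to 1.5 with 2.5 to 3 Mb (37 to 5), 11.5 to 12 with 16.5 to 17 Mb (33 to 8), 225.5 to 226 with 227 to 227.5 Mb (44 to 8) and 0.5 to 1 with 2 to 2.5 Mb (45 to 9). Changes of bin pairs in either treatment were not corrected for the coverage of the bins. For the last pair, coverage went from 0.555 to 0.379 times the median at 0.5 to 1 Mb and from 1.70 to 1.18 times at 2 to 2.5 Mb in ATRA. The part of coverage in these changes was not tested. Several of the largest rises in ATRA lay between positions inside the long A run of 1p, at bins with scores of the summed matrices mostly within 0.5 SD of 0, such as 15 to 15.5 with 30.5 to 31 Mb (10 to 31 contacts, log2 1.62, 0.55 to 2.81), 30.5 to 31 with 37.5 to 38 Mb (13 to 37) and 18 to 18.5 with 34.5 to 35 Mb (15 to 43).

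In TPA the largest rises lay on 1q between bins with scores below -1 in TPA. The pair 233.5 to 234 with 237.5 to 238 Mb went from 6 contacts to 35 (log2 2.45, 1.18 to 3.99) with 11 in ATRA, and 211 to 211.5 with 214 to 214.5 Mb from 8 to 39 (log2 2.31, 1.20 to 3.62) with 24 in ATRA. Around the former, 233.5 to 234 with 237 to 237.5 Mb went from 11 to 33 and 234 to 234.5 with 237.5 to 238 Mb from 13 to 35, and the ends at 233.5 to 234.5 Mb lie inside the A run at 223.5 to 236.5 Mb, whose mean score fell. The largest fall in TPA was 152 to 152.5 with 153.5 to 154 Mb, from 38 contacts to 7 (log2 -2.08, -3.49 to -0.90) with 18 in ATRA, and 152 to 152.5 Mb is also the switching bin with the largest fall in score. The next were 54.5 to 55 with 56.5 to 57 Mb (38 to 10), 47.5 to 48 with 52 to 52.5 Mb (29 to 11) and 89 to 89.5 with 90.5 to 91 Mb (36 to 10). The count of such pairs also followed the minimum: with 20 contacts in place of 40, 251 pairs were higher and 216 lower in ATRA.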

How the data were processed

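Chromosome 1 and the lists used here were chosen with earlier results of these data known. Fixed chromatin was cut with HindIII and re-ligated, per the labels' protocols. Bowtie aligned the reads and HiCUP filtered them, per the series' design text. The submitters' processing notes name HOMER 4.7 and hg19. The deposited values are raw counts of contacts, whole numbers for 6203 by 6203 bins, per the file headers and values, and each sample's description names the matrix that holds it. The median bin had 3461 (untreated), 3272 (ATRA) and 3466 (TPA) contacts, so sums over windows are precise and single bin pairs are not.

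From these counts, the diagonal was divided by 2, and the upper triangle was used because 1 cell of the untreated matrix differed from its mirror. Bins with low coverage were kept out of balancing (60 iterations) and compartments. Expected contacts between chromosomes were the product of the coverage of both bins, or, for arms, came from iterative proportional fitting to the coverage of all arms. Shares have exact binomial intervals, counts exact Poisson and ratios of counts exact conditional binomial ones, at 95%. Regions named are all joined clusters, the 5 longest A and B runs, the switching bins, coverage runs of 3 or more bins, the 5 highest and most changed partners of each arm, and the most changed bin pairs. The boundary, the blocks around it, the profile of chromosome 16 and the runs of 5 or more bins were added after the data were seen. The steps that find the gap, the compartment scores and switches, the joined pairs and the changed pairs were tested on simulated data, and the other steps were not (Python 3.11.15, NumPy 2.4.6, SciPy 1.17.1, pandas 2.3.3). No sequence or gene position is given, since no genome of the files' build was used here. Alternatives were other contact counts, expectations, limits and coverage filters.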

Additional observations from a re-analysis of the deposited data

How the results depend on the processing

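No paired analysis was possible because the numbered libraries of untreated and TPA cells were merged into 1 matrix each, and for the same reason no replicate could be left out. With 1 matrix a condition, counting error is the only error that could be measured, the reach of single bin pairs is limited by 3272 to 3466 contacts in the median bin, and 500 kb bins place the boundary no closer than a bin. Of 103 alternative values for 37 results, 34 stayed inside the counting interval (or within 5% where there was none, and within 1.5 times for a count), 63 moved beyond it and 6 changed side, not counting a change of side where the reported interval included 1. The causes were not tested.

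Per bin, 1p over 1q was 1.08, 1.04 and 1.08 in untreated, ATRA and TPA with contacts to other chromosomes only, and 1.08, 1.04 and 1.07 with bins at 0.5 times the median coverage or more. Without contacts inside a bin the chromosome kept 24.4%, 20.2% and 23.0% of its contacts. Contact between the arms with raw contacts was 0.850, 0.895 and 0.837 times, so all 3 went from above to below 1, and it was 1.04 in TPA with all autosomes as the expectation and 1.03 in ATRA with bins at 0.5 times the median or more.

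Compartment switches from A to B numbered 3 in ATRA and 16 in TPA with raw contacts, and 13 and 25 with a limit of 0.25 SD. Switches from B to A numbered 0 in ATRA with raw contacts, with each arm scored separately and with bins at 0.5 times the median or more, 0 in TPA with raw contacts and with each arm scored separately, and 4 and 8 at 0.25 SD. The strength of the pattern in untreated cells was 3.91 with raw contacts, 3.38 by arm, 3.33 with bins ordered by the summed matrix and 4.58 with the top and bottom 10%. Treated over untreated it was 0.847 in ATRA and 0.901 in TPA with raw contacts, and it changed side to 1.05 and 1.12 by arm and 1.09 and 1.06 with the 10% classes. Without chromosomes 3, 5, 14 and 21 as reference, an alternative chosen after seeing the data, the median change in contact with A bins in TPA was -0.63 points.

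The number of joined clusters was 24 at 10 or more contacts, 4 at 40 or more, and 3, 2 and 3 in the untreated, ATRA and TPA matrices alone. The cluster of 1p with 3q had 37.3, 22.5 and 29.9 times the expected contacts by number of bin pairs, and 16.4 times in TPA by contacts between chromosomes. With the boundary 1 bin earlier and later on both chromosomes, also chosen after seeing the data, the block before it had 10.8 and 11.2 times, the block after it 6.93 times when later, and the remaining combinations rose to 2.11 and 2.68 times and to 1.68 and 1.62 times in untreated cells.

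With expectations by number of bins, 1p had 1.12 times with chromosome 3, 1.69 with 22 and 1.20 with 19, and 1q had 1.15 with 13 and 1.23 with 22, the last of which changed side. Without joined pairs 1p with chromosome 3 was 1.13, with the contact of the 2 blocks below the limit still counted. Changed bin pairs with 20, then 80 contacts as the minimum numbered 251 and 3 raised and 216 and 3 lowered in ATRA, and 223 and 3 raised and 248 and 4 lowered in TPA. With matrix totals 19 were raised and 145 lowered in ATRA, and 98 lowered in TPA.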
